A study of Mus musculus with 12 samples.

Results

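The interferon-stimulated genes described here are 48 genes chosen by symbol, such as Isg15, Ifit1, Mx1 and Gbp2. Cells switch such genes on when they receive interferon. The list and its grouping by role were chosen with earlier results of these data known. All 48 were found among the 24502 genes of the deposited table, and all 48 passed the filter on low counts that left 14827 genes for testing. They were measured by RNA sequencing in mouse regulatory T cells (Treg cells, the Foxp3-expressing T cells that restrain immune responses) from 11-week-old mice. The Gpx4-deficient animals carried Foxp3CreGpx4fl/fl, in which Cre recombinase driven by Foxp3 removes a loxP-flanked Gpx4, the gene of an enzyme that detoxifies lipid peroxides. The comparison animals are labelled only WT, so an effect of Cre itself and the loss of Gpx4 cannot be told apart. The 4 groups were Gpx4-deficient cells and wild-type cells after 4 h on dishes coated with CD3 and CD28 antibodies (5 µg/ml), and Gpx4-deficient and wild-type cells without stimulation. Each group had 3 libraries, 12 in all. The labels do not say whether the 3 libraries came from separate mice, so p-values reflect how far the libraries of a group differ, a spread that may be technical only. No culture time is given for the unstimulated cells, so stimulation and culture cannot be told apart, and the library identifiers of the 2 genotypes run in separate blocks, so genotype and batch of libraries cannot be told apart either.

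Type I interferons bind the receptor made of Ifnar1 and Ifnar2, and through the kinases Jak1 and Tyk2 this leads Stat2 and Irf9 to join in a complex called ISGF3. That complex binds a DNA element, the interferon-stimulated response element (ISRE), in front of antiviral genes such as the Ifit, Oas and Mx families. Interferon gamma acts through Ifngr1, Ifngr2, Jak1 and Jak2 and mainly on a different element, the gamma-activated site (GAS), and together with Irf1 it drives the guanylate-binding proteins (GBPs) and immunity-related GTPases (IRGs). T cells also keep a low level of many of these genes in the absence of infection.

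The promoters shown are of members that rose or fell with stimulation, picked because they hold the letters of the first element. RefSeq promoters (GRCm38.p6) were found for 37 of the 48 members, and the 250 bases before each start were searched on both strands for an ISRE-type run of letters, TTTC, any 2 bases and TTTC, and for a GAS-type run, TTCNNNGAA. The ISRE-type letters were present in 18 of the 37 members (48.6%), against 936 of 27025 genes in the same table (3.46%). Among the GBP and IRG GTPases 5 of 6 held them, and among the other members 13 of 31. The GAS-type letters were present in 6 of the 37 members (16.2%), against 8.13% of all genes. A match of letters is a description of the sequence and not evidence that a factor binds there. Below are 6 promoters, written 5′ to 3′ on the gene's own strand and ending at the base before the start. They belong to members that passed the test for stimulation in both genotypes and hold an ISRE-type match, 4 that rose and 2 that fell. Irf7 and Isg20 also fell in both genotypes, but their promoters hold no ISRE-type match and are not shown. Capitals mark ISRE-type and GAS-type matches on either strand.
Gbp2: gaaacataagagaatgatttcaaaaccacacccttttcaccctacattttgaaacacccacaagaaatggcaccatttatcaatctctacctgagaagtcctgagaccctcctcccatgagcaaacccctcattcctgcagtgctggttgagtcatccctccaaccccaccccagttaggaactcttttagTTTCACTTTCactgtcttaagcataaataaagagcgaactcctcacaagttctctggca
Irgm1: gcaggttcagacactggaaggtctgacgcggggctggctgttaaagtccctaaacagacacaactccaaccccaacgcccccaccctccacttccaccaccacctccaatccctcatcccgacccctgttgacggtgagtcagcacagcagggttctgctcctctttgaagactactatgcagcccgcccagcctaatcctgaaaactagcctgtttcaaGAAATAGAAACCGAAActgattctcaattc
Igtp: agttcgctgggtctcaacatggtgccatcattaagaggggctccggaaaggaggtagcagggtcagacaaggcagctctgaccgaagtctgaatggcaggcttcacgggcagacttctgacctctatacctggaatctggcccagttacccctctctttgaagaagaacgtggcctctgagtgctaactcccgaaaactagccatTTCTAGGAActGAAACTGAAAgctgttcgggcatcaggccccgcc
Irgm2: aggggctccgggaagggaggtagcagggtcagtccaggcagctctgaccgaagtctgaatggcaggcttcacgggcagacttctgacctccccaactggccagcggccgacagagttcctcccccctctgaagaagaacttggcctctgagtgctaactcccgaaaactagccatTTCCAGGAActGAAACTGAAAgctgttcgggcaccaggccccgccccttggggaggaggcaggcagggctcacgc
Ifi213: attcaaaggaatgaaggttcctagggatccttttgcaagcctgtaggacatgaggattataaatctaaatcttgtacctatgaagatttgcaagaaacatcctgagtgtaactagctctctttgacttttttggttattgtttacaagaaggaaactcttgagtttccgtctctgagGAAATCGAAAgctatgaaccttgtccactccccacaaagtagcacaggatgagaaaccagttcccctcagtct
Ifit3: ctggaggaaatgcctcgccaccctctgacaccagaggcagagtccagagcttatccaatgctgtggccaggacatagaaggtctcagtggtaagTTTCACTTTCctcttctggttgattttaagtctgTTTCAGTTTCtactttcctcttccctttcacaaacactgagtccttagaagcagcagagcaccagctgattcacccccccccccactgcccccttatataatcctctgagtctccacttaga
The Gbp2 window lies at chr3:142620413-142620662 on the plus strand, with its match 59 bases before the start. The Irgm1 window lies at chr11:48871421-48871670 on the minus strand and has 2 overlapping matches, 30 and 24 bases before the start. Igtp (chr11:58199306-58199555, plus strand) and Irgm2 (chr11:58214727-58214976, plus strand) are neighbours, and each holds a GAS-type match directly before an ISRE-type match. In Igtp these begin 45 and 34 bases before the start, and in Irgm2 75 and 64 bases before it. The Irgm2 window follows the RefSeq start, which is not near the GENCODE start of that gene at 58199618. The Irgm1 window lies within the GENCODE span of its gene, which begins at 48871683 on the minus strand. The Gbp2 window runs past the GENCODE start of its gene at 142620602. The longest run that the Igtp and Irgm2 windows share is 55 bases, and 172 of the 250 bases lie in shared runs of at least 10 bases. The Ifi213 window lies at chr1:173599273-173599522 on the minus strand with a match 73 bases before the start, and the Ifit3 window at chr19:34583279-34583528 on the plus strand with matches 156 and 122 bases before it.

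Library totals ran from 24629230 to 31879267 expected counts, and the 48 members took 0.459% to 0.708% of them. Gpx4 checked the labels, at 3.34 to 9.23 CPM (counts scaled to library size with TMM factors) in stimulated Gpx4-deficient and 69.2 to 107.5 CPM in stimulated wild-type libraries, and without stimulation at 4.96 to 12.3 CPM in Gpx4-deficient and 141.9 to 172.1 CPM in wild-type libraries. Foxp3, which defines the lineage, had a count in every library, between 20.6 and 75.9 CPM. The libraries did not behave alike for these genes. Unstimulated wild-type replicate 3 was the highest of its group for 37 of the 48 members, against 33.4% of all tested genes. Unstimulated Gpx4-deficient replicate 3 was the highest of its group for 28 members, against 32.8% of all tested genes. For stimulated wild-type replicate 3 this was 24 members, against 31.5%. In stimulated Gpx4-deficient libraries, 9 members (18.8%) had at most 10 counts in one library and more than 100 in another, close to the 17.2% of all tested genes that did so. The same pattern held for 3 members (6.25%) among stimulated wild-type libraries, for 2 (4.17%) among unstimulated Gpx4-deficient ones and for 1 (2.08%) among unstimulated wild-type ones. In bulk RNA, fewer cells that express a gene and less RNA per cell cannot be told apart.

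**Figure D1:**
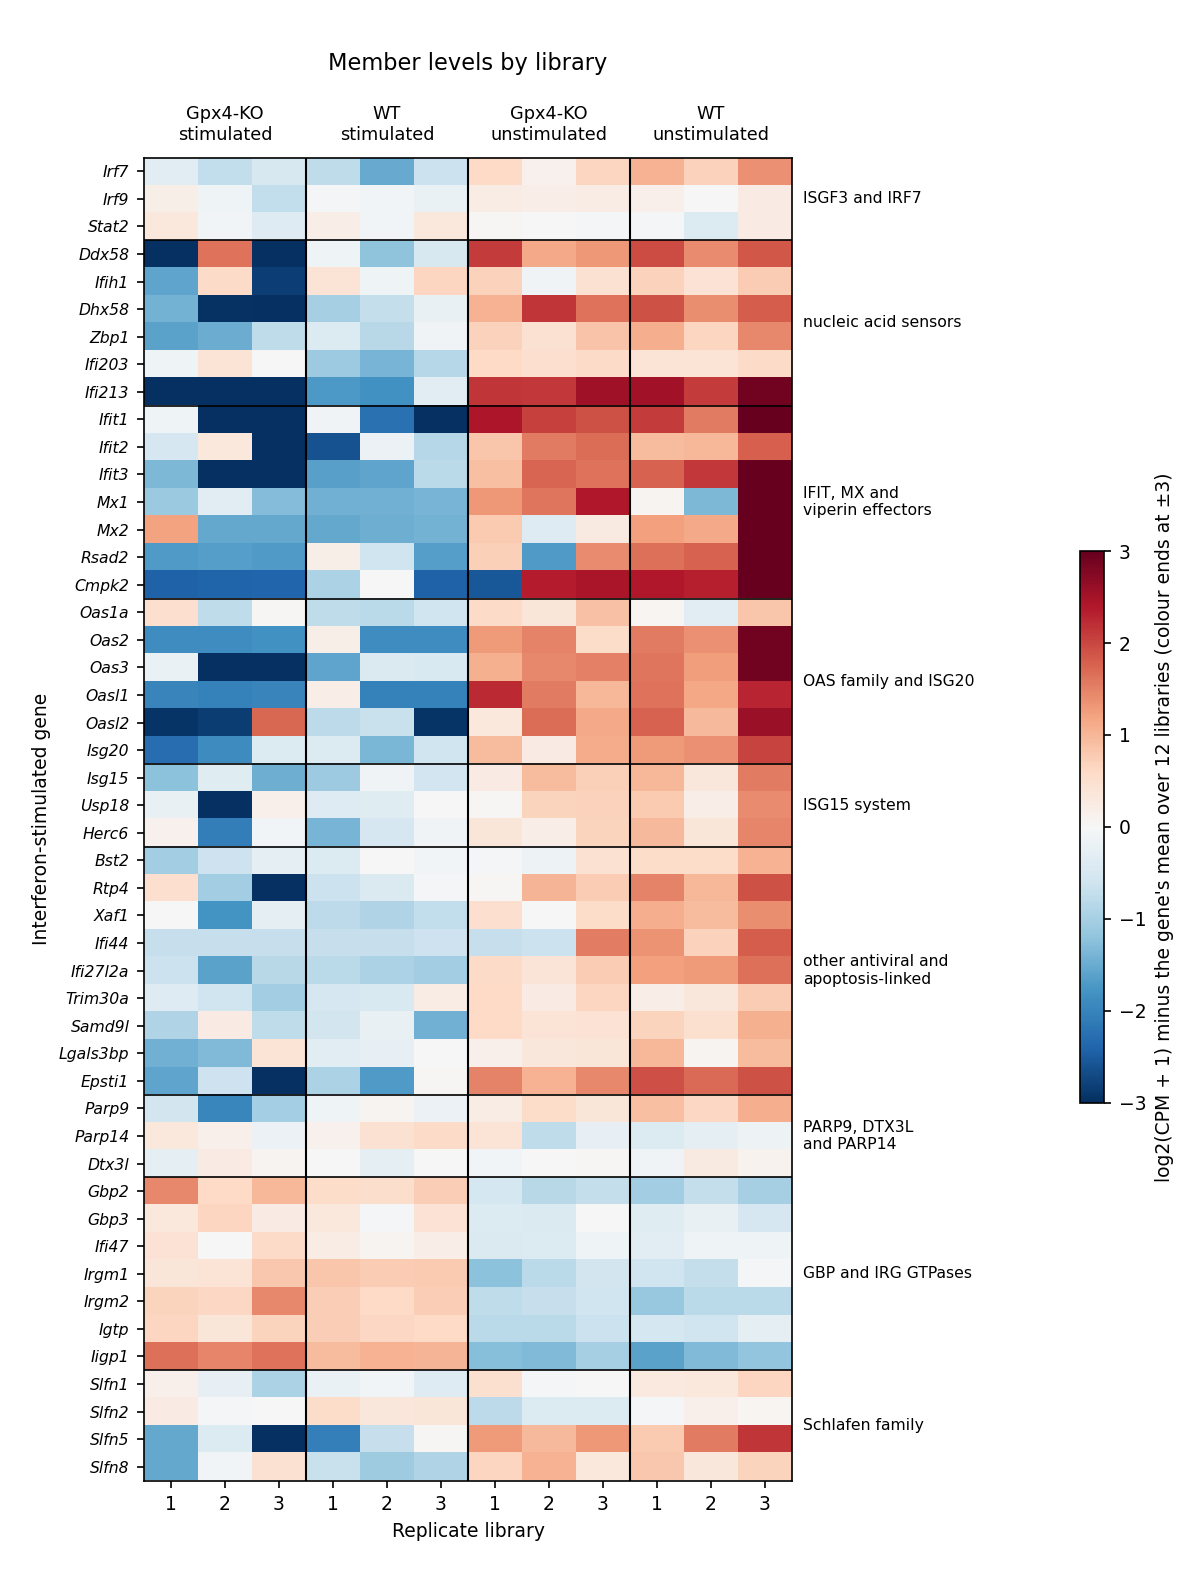
Each cell is the log2(CPM + 1) level of 1 member (rows, by role) in 1 library (columns, by group), minus the mean of that member over the 12 libraries, with colours ending at 3 either way. The 7 GBP and IRG GTPases were higher with stimulation in both genotypes, most other members were lower, and unstimulated wild-type replicate 3 was the highest of its group for 37 of the 48 members.

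The summed level of the GTPase members was higher with stimulation and that of the remaining members lower in both genotypes, although 21 of the 48 members were called in neither genotype and Slfn2, which is no GTPase, rose in Gpx4-deficient cells. The 7 GBP and IRG GTPases summed to 3681 ± 452.8 CPM in stimulated and 1391 ± 143 CPM in unstimulated Gpx4-deficient libraries, and to 3325 ± 110.2 CPM in stimulated and 1520 ± 140.7 CPM in unstimulated wild-type cells (SD, n = 3 each). The other 41 members summed to 2135 ± 112 CPM in stimulated and 3355 ± 133.8 CPM in unstimulated Gpx4-deficient libraries, and to 2340 ± 121.6 CPM in stimulated and 4314 ± 834.4 CPM in unstimulated wild-type cells. The stimulated and unstimulated libraries did not overlap in either sum in either genotype. Since the roles were chosen with earlier results of these data known, these 2 sums describe the members and are no independent support for the split. Summed over all 48 members, the 2 movements partly offset each other, with 5816 ± 439.8 CPM in stimulated and 4747 ± 267.9 CPM in unstimulated Gpx4-deficient libraries, and 5664 ± 223.6 CPM in stimulated and 5835 ± 958.1 CPM in unstimulated wild-type cells.

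In Gpx4-deficient cells 8 members rose (16.7%, against 7.45% of all tested genes) and 14 fell (29.2%, against 7.83%) at an adjusted p under 0.05 in the edgeR quasi-likelihood test, the source of every adjusted p below unless another tool is named. In wild-type cells 5 members rose (10.4%, against 6.12% of all tested genes) and 11 fell (22.9%, against 5.41%). The median log2 fold change of the 48 members was -1.01 in Gpx4-deficient and -1.60 in wild-type cells, where that of all tested genes was -0.02 and -0.04. Every stimulated Gpx4-deficient library lay above every unstimulated one for 8 members (background 12.9%) and below for 24 (background 16.9%). The same was true in wild-type cells for 9 members above (background 19.8%) and 35 below (background 22.1%). The calls covered 27 members in all, of which 5 rose and 6 fell in both genotypes. These 11 are 50% of the 22 called in Gpx4-deficient cells and 68.8% of the 16 called in wild-type cells. The same shares over all tested genes are not given here. The Gpx4-deficient response had 8 rises and 7 falls without unstimulated replicate 3, 7 rises and 9 falls without unstimulated replicate 1, and 8 rises and 15 falls without stimulated replicate 3. The wild-type response had 5 rises and 6 falls without unstimulated replicate 3, 5 rises and 7 falls without stimulated replicate 3, and 6 rises and 7 falls without stimulated replicate 2. Fitting each genotype alone gave 13 calls in Gpx4-deficient cells (5 up, 8 down) and 39 in wild-type cells (9 up, 30 down), and DESeq2 gave 30 in wild-type cells. The shares of all genes called in these fits, and in those without 1 library, are not given here.

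**Figure D2:**
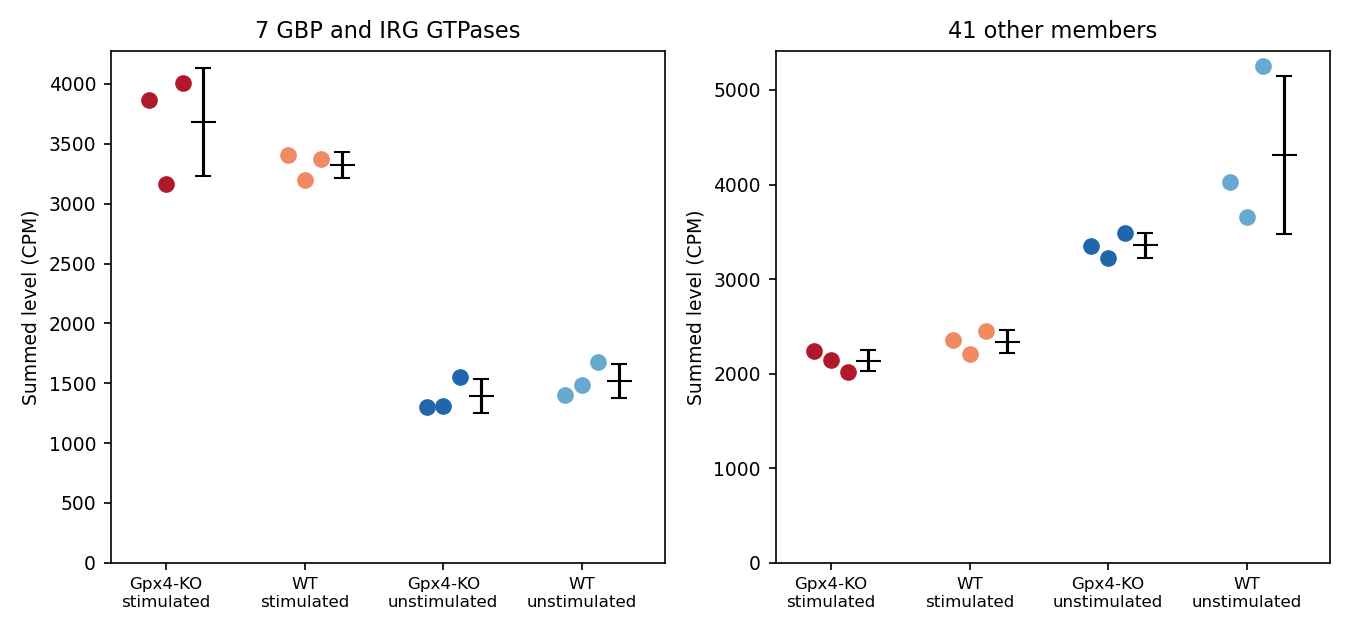
Points are the summed CPM of the 7 GBP and IRG GTPases (left) and of the 41 other members (right) in each library, with the mean and SD of each group (n = 3) beside them. The GTPase sum lies at 3164 CPM or more in every stimulated library and at 1675 CPM or less in every unstimulated one, while the sum of the other members runs the opposite way, with unstimulated wild-type replicate 3 the highest at 5253 CPM.

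The GBP and IRG GTPases, which interferon gamma induces and which attack the vacuoles of intracellular pathogens, all rose in Gpx4-deficient cells (7 of 7 called) and 5 of 7 were called in wild-type cells. Iigp1, an IRG that coats such vacuoles, had 763, 667 and 750.1 CPM in stimulated and 98.9, 95.5 and 119.8 CPM in unstimulated Gpx4-deficient libraries. In wild-type libraries Iigp1 had 466, 501 and 491 CPM with stimulation and 78.5, 95.3 and 106 CPM without it. The groups were far apart in both genotypes, with log2 fold changes of 2.79 (adjusted p = 1.53e-07, SE 0.14) in Gpx4-deficient and 2.38 (adjusted p = 4.60e-07, SE 0.14) in wild-type cells, the largest rise of any member in both genotypes. Gbp2, a guanylate-binding protein, had 682, 379.5 and 504 CPM in stimulated and 173, 139.7 and 153 CPM in unstimulated Gpx4-deficient cells, and 367, 362 and 422 CPM in stimulated and 121, 152 and 125 CPM in unstimulated wild-type cells. Its log2 fold changes were 1.75 (adjusted p = 8.85e-05, SE 0.20) and 1.53 (adjusted p = 0.000223, SE 0.19) in Gpx4-deficient and wild-type cells. Gbp3, from the same family, had 185, 233 and 176 CPM with and 112, 109 and 151 CPM without stimulation in Gpx4-deficient cells, and 186, 142 and 199 CPM with and 116, 126 and 105 CPM without it in wild-type cells. Its rise passed the test in Gpx4-deficient cells at 0.68 (adjusted p = 0.0287, SE 0.19), while the wild-type value was 0.60 (adjusted p = 0.0596, SE 0.19). The Gbp3 call was lost without unstimulated Gpx4-deficient replicate 1 or 2 or stimulated replicate 2 (adjusted p up to 0.0869). Gbp3 counts were not whole in 11 of 12 libraries, so its share of reads is uncertain.

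Irgm1, Irgm2 and Igtp belong to the regulatory branch of the IRG family, which holds the other IRGs inactive on the cell's own membranes. Igtp had 1044, 847 and 1057 CPM in stimulated and 381, 378 and 422 CPM in unstimulated Gpx4-deficient libraries, and 1115, 1020 and 1010 CPM in stimulated and 457, 438 and 552 CPM in unstimulated wild-type libraries. All stimulated libraries were above all unstimulated ones, with log2 fold changes of 1.32 (adjusted p = 1.61e-05, SE 0.12) in Gpx4-deficient and 1.12 (adjusted p = 5.59e-05, SE 0.12) in wild-type cells. Irgm2 had 149, 146 and 258 CPM with and 55.5, 57.5 and 61.7 CPM without stimulation in Gpx4-deficient cells, and 157, 143 and 158 CPM with and 42.03, 53.4 and 52.99 CPM without it in wild-type cells. It rose by 1.66 in Gpx4-deficient (adjusted p = 0.000375) and by 1.63 in wild-type cells (adjusted p = 0.000416) on the log2 scale. The annotated exons of Igtp and Irgm2 overlap on one strand and the counts of both were not whole in 11 of 12 libraries, so the split of reads between these 2 genes is uncertain. Irgm1 had 405, 416 and 556 CPM with and 134, 180.2 and 215 CPM without stimulation in Gpx4-deficient cells, and 558, 531 and 546 CPM with and 207, 190.3 and 305 CPM without it in wild-type cells. No library of one state reached those of the other, and the log2 fold changes were 1.38 (adjusted p = 0.000958, SE 0.21) and 1.22 (adjusted p = 0.00225, SE 0.21) in Gpx4-deficient and wild-type cells. Ifi47, another IRG, had 641, 476 and 707 CPM with and 351, 353 and 435 CPM without stimulation in Gpx4-deficient cells, and 555, 500.3 and 547 CPM with and 379, 431 and 429.7 CPM without it in wild-type cells. Ifi47 rose in Gpx4-deficient cells, 0.68 (adjusted p = 0.00797, SE 0.14), and gave 0.37 (adjusted p = 0.143, SE 0.14) in wild-type cells. Ifi47 shares exon sequence with Olfr56 in the annotation.

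The transcription factors of the type I response did not move as a block. Irf7, the factor that amplifies type I interferon production, had 74.7, 56.97 and 68.3 CPM in stimulated and 145, 104 and 149 CPM in unstimulated Gpx4-deficient libraries. In wild-type libraries Irf7 had 55.5, 33.03 and 60.5 CPM with stimulation and 198, 154 and 248 CPM without it. The states did not overlap in either genotype, and the log2 fold changes were -0.99 (adjusted p = 0.0228, SE 0.26) in Gpx4-deficient and -2.01 (adjusted p = 0.000318, SE 0.27) in wild-type cells. Without unstimulated Gpx4-deficient replicate 1 or 3, or stimulated Gpx4-deficient replicate 2, the Irf7 call in Gpx4-deficient cells was lost, with adjusted p up to 0.0786 over the 6 fits that each left out 1 library. Irf9, the DNA-binding subunit of ISGF3, had 213, 172 and 113 CPM with and 219, 218 and 222 CPM without stimulation in Gpx4-deficient cells, and 180.5, 178 and 164 CPM with and 211, 189 and 224 CPM without it in wild-type cells. Neither Irf9 nor Stat2, another subunit, was called in any comparison, and the log2 fold changes of Stat2 were -0.02 in Gpx4-deficient and 0.20 in wild-type cells.

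Of the 6 nucleic acid sensors, 3 fell in Gpx4-deficient cells (Dhx58, Zbp1 and Ifi213), 3 fell in wild-type cells (Zbp1, Ifi203 and Ifi213) and none rose. Zbp1, which binds nucleic acids in the left-handed Z form and can start necroptosis, had 19.5, 21.3 and 36.1 CPM with and 100.3, 85.5 and 113 CPM without stimulation in Gpx4-deficient cells, and 46.3, 34.3 and 56.9 CPM with and 133, 96.5 and 169 CPM without it in wild-type cells. No stimulated library reached the unstimulated ones of its genotype, with log2 fold changes of -1.96 (adjusted p = 0.00108, SE 0.31) and -1.54 (adjusted p = 0.00517, SE 0.30) in Gpx4-deficient and wild-type cells. Dhx58, which encodes the RNA sensor LGP2, had 5.17, 1.11 and 0.377 CPM with and 33.00, 71.6 and 50.5 CPM without stimulation in Gpx4-deficient cells, and 7.36, 9 and 13.1 CPM with and 61.2, 42.4 and 56.9 CPM without it in wild-type cells. The fall passed the test in Gpx4-deficient cells, -4.54 (adjusted p = 0.00251, SE 0.80), and the wild-type value was -2.45 (adjusted p = 0.0513, SE 0.73). Ddx58, which encodes the RNA sensor RIG-I, had 0.646, 122 and 0.264 CPM in stimulated Gpx4-deficient libraries, 2 near 0 and 1 at the unstimulated level. Unstimulated Gpx4-deficient libraries had 171, 87.1 and 96.7 CPM, stimulated wild-type ones 35.3, 16.1 and 27.8 CPM and unstimulated wild-type ones 155, 105 and 143 CPM. Ddx58 was not called, with log2 fold changes of -1.53 (adjusted p = 0.524, SE 1.39) and -2.35 (adjusted p = 0.38, SE 1.43) in Gpx4-deficient and wild-type cells. Ifih1, which encodes the RNA sensor MDA5, was not called either, at -1.03 and -0.30.

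Ifi203 and Ifi213 belong to the PYHIN family of DNA-binding proteins on chromosome 1, and after stimulation they differed between the genotypes in opposite directions. Ifi203 had 143, 206 and 156 CPM in stimulated Gpx4-deficient and 72.7, 57.99 and 84.7 CPM in stimulated wild-type libraries, and 234, 222 and 231 CPM in Gpx4-deficient and 206, 206 and 229.7 CPM in wild-type libraries without stimulation. It was higher in stimulated Gpx4-deficient than in stimulated wild-type cells without overlap, and the unstimulated genotypes did overlap. Stimulation lowered Ifi203 in wild-type cells, -1.58 (adjusted p = 8.67e-05, SE 0.18), and gave -0.44 (adjusted p = 0.107, SE 0.17) in Gpx4-deficient cells. Ifi213 had 0.0718, 0.123 and 0.151 CPM in stimulated and 54.4, 52.8 and 71.02 CPM in unstimulated Gpx4-deficient libraries, and 2.77, 2.51 and 8.98 CPM in stimulated and 70.8, 52.2 and 91.1 CPM in unstimulated wild-type libraries. The stimulated Gpx4-deficient libraries held 2, 4 and 4 counts of it. It fell in both genotypes, with log2 fold changes of -8.95 (adjusted p = 4.26e-06) in Gpx4-deficient and -3.91 (adjusted p = 0.000335) in wild-type cells. Ifi203 shares exon sequence with Mndal in the annotation, and the counts of both Ifi203 and Ifi213 were not whole in all 12 libraries. Reads of each may therefore have been shared with other genes, and which genes was not tested.

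The IFIT, MX and viperin group, effectors that bind viral RNA or block viral replication, had negative log2 fold changes for 7 of 7 members in both genotypes, but 3 passed the test in Gpx4-deficient cells (Ifit3, Rsad2 and Cmpk2) and 2 in wild-type cells (Ifit3 and Mx1). Ifit3, an RNA-binding partner of Ifit1, had 3.27, 0.0617 and 0.0377 CPM with and 19.3, 35.5 and 32.7 CPM without stimulation in Gpx4-deficient cells, and 2.52, 2.63 and 5.26 CPM with and 36.3, 46.3 and 164 CPM without it in wild-type cells. Within each genotype all stimulated libraries were below all unstimulated ones, with log2 fold changes of -4.70 (adjusted p = 0.0292, SE 1.29) and -4.56 (adjusted p = 0.0382, SE 1.27) in Gpx4-deficient and wild-type cells. The wild-type Ifit3 call was lost without any 1 of the 6 libraries (adjusted p 0.0554 to 0.176), and the Gpx4-deficient one without unstimulated replicate 2 or 3 (up to 0.0678). Rsad2, which encodes viperin, an enzyme that makes a chain-terminating nucleotide, had 0, 0.0309 and 0 CPM with and 4.32, 0 and 7.77 CPM without stimulation in Gpx4-deficient cells, and 2.68, 1.16 and 0.0404 CPM with and 9.33, 10.1 and 31.02 CPM without it in wild-type cells. In Gpx4-deficient cells the states overlapped, since unstimulated replicate 2 had no Rsad2 count. The stimulated Gpx4-deficient libraries held 1 count in all, against 329 unstimulated, a ratio of 0.00284 with an exact 95% counting interval of 7.16e-05 to 0.0159 (adjusted p = 0.0359). Cmpk2, a mitochondrial nucleotide kinase that adjoins Rsad2, had 0.0718, 0.0926 and 0.113 CPM with and 0, 28.4 and 30.4 CPM without stimulation in Gpx4-deficient cells, and 1.99, 4.83 and 0.0809 CPM with and 29.7, 28.04 and 68.8 CPM without it in wild-type cells. Unstimulated Gpx4-deficient replicate 1 had no Cmpk2 count and so lay below the stimulated libraries, and the log2 fold change was -7.66 (adjusted p = 0.0252, SE 2.04). The calls of Rsad2 and Cmpk2 were each lost in 5 of 6 fits without 1 library (adjusted p up to 0.0874 and 0.0689), Rsad2 keeping it without unstimulated replicate 2 and Cmpk2 without unstimulated replicate 1.

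Mx1, a dynamin-like GTPase against influenza viruses in mice, had 0.251, 1.17 and 0.113 CPM with and 5.69, 7.26 and 13.4 CPM without stimulation in Gpx4-deficient cells, and 0, 0 and 0.0404 CPM with and 1.9, 0.0742 and 20.8 CPM without it in wild-type cells. The stimulated wild-type libraries held 1 count against 579 unstimulated, a ratio of 0.0018 (exact 95% counting interval 4.54e-05 to 0.0101, adjusted p = 0.0247). One library, unstimulated wild-type replicate 3, held 528 of the 579 counts. The Mx1 call was lost without it or without any stimulated wild-type library (adjusted p up to 0.122). Mx2, its paralogue, had 5.64, 0 and 0 CPM in stimulated and 3.94, 1.19 and 2.49 CPM in unstimulated Gpx4-deficient libraries, and was not called in any comparison. Ifit1, which binds viral RNA, had 11.8, 0.185 and 0.113 CPM with and 73.7, 56.9 and 52.04 CPM without stimulation in Gpx4-deficient cells, and 12.1, 1.97 and 0.162 CPM with and 58.8, 40.6 and 129 CPM without it in wild-type cells. Its stimulated libraries spread widely and all lay below the unstimulated ones. Ifit1 and Ifit2, of the same family, were not called, with log2 fold changes of -3.91 and -2.08 in Gpx4-deficient and -4.01 and -2.35 in wild-type cells. Counting intervals cover counting error only.

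The OAS family makes oligoadenylates that switch on RNase L, and all 6 members of the group with Isg20 had negative log2 fold changes in both genotypes. Isg20, an RNA exonuclease, fell in both, with 4.38, 6.05 and 18.7 CPM in stimulated and 49.4, 30.2 and 56.04 CPM in unstimulated Gpx4-deficient libraries, and 18.7, 9.12 and 16.5 CPM in stimulated and 62.5, 66.6 and 105 CPM in unstimulated wild-type cells. Its log2 fold changes were -2.22 (adjusted p = 0.0161, SE 0.54) in Gpx4-deficient and -2.40 (adjusted p = 0.0124, SE 0.54) in wild-type cells. The first call was lost without unstimulated Gpx4-deficient replicate 3 (adjusted p = 0.0515) and the second without unstimulated replicate 3 or stimulated replicate 2 of wild-type cells (up to 0.0584). Oas2 had 0, 0 and 0.0377 CPM with and 7.77, 9.22 and 4.3 CPM without stimulation in Gpx4-deficient cells, and 3.09, 0 and 0 CPM with and 9.71, 8.38 and 26.1 CPM without it in wild-type cells. It fell in Gpx4-deficient cells with 1 count against 575, a ratio of 0.00162 (exact 95% counting interval 4.1e-05 to 0.00908, adjusted p = 0.029). Oasl1, which in mice limits the translation of Irf7, had 0.0359, 0 and 0.0377 CPM with and 18.5, 11.1 and 7.25 CPM without stimulation in Gpx4-deficient cells, and 3.7, 0 and 0 CPM with and 11.73, 8.16 and 19.01 CPM without it in wild-type cells. Oasl1 fell in Gpx4-deficient cells with 2 counts against 1006, a ratio of 0.00186 (0.000224 to 0.00672, adjusted p = 0.0244). Both Oas2 and Oasl1 lost the call in most fits without 1 library, 5 and 4 of 6, with adjusted p up to 0.0712 and 0.0584. Oas2 kept it without unstimulated Gpx4-deficient replicate 3, and Oasl1 without unstimulated replicate 2 or 3. Oas3 had 12.3, 0.278 and 0.302 CPM with and 30.7, 39.9 and 42.3 CPM without stimulation in Gpx4-deficient cells, and 4.03, 10.2 and 10.1 CPM with and 45.4, 35.1 and 113 CPM without it in wild-type cells, and Oas1a, Oas3 and Oasl2 were not called in any comparison.

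The ISG15 system had no call in any comparison, although all 3 members had negative stimulation log2 fold changes in both genotypes, between -1.83 and -0.85 in Gpx4-deficient and between -1.75 and -1.12 in wild-type cells. Usp18, the protease that removes the ubiquitin-like protein ISG15 and damps the receptor, had 52.7, 6.94 and 68.2 CPM with and 63.1, 98.00 and 100.1 CPM without stimulation in Gpx4-deficient cells. Its wild-type values were 47.3, 47.9 and 62.7 CPM with stimulation and 107, 71.5 and 166 CPM without it. Isg15 itself had 2.98, 6.3 and 2.38 CPM with and 10.02, 17.2 and 14.4 CPM without stimulation in Gpx4-deficient cells, and 3.42, 7.73 and 5.3 CPM with and 17.6, 10.9 and 26.8 CPM without it in wild-type cells. Herc6, its ligase in mice, was not called, at -0.85 and -1.62.

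Among the 9 other antiviral and apoptosis-linked members, 2 fell in Gpx4-deficient cells, 3 fell in wild-type cells and none rose. Ifi27l2a, a small mitochondrial protein of the ISG12 family, had 75.04, 37.9 and 64.98 CPM in stimulated and 175, 153 and 198 CPM in unstimulated Gpx4-deficient libraries, and 66.7, 60.6 and 56.00 CPM in stimulated and 278, 284 and 372 CPM in unstimulated wild-type cells. The states were apart in both genotypes, with log2 fold changes of -1.56 (adjusted p = 0.000823, SE 0.23) and -2.35 (adjusted p = 4.39e-05, SE 0.24) in Gpx4-deficient and wild-type cells. Trim30a, a restrainer of NF-kB signalling, had 50.9, 44.1 and 32.2 CPM with and 102, 80.3 and 105 CPM without stimulation in Gpx4-deficient cells, and 47.2, 48.4 and 78.3 CPM with and 76.8, 84.9 and 115 CPM without it in wild-type cells. It fell in Gpx4-deficient cells, -1.18 (adjusted p = 0.0118, SE 0.27), a call lost without unstimulated replicate 3 (adjusted p = 0.0530), and gave -0.67 (adjusted p = 0.153, SE 0.27) in wild-type cells. Trim30a counts were not whole in 11 of 12 libraries, so its share of reads is uncertain. Xaf1, a promoter of apoptosis, had 31.2, 8.27 and 25.6 CPM with and 44.8, 31.5 and 46.6 CPM without stimulation in Gpx4-deficient cells, and 17.7, 16.2 and 18.4 CPM with and 68.2, 60.8 and 83.97 CPM without it in wild-type cells. It fell in wild-type cells, -2.02 (adjusted p = 0.00759, SE 0.42), without overlap between the states. Samd9l, a restrainer of translation, had 46.2, 104 and 51.02 CPM with and 133, 117 and 119 CPM without stimulation in Gpx4-deficient cells, and 59.4, 75.3 and 31.5 CPM with and 139.9, 123 and 184 CPM without it in wild-type cells. It fell in wild-type cells, -1.43 (adjusted p = 0.0216, SE 0.36), a call kept without replicate 2 of either state and lost without any other library (adjusted p up to 0.102). Bst2 (tetherin, which holds virus particles at the surface), Rtp4, Ifi44, Lgals3bp and Epsti1 were not called. Ifi44 had no count in the 3 stimulated Gpx4-deficient libraries and 0, 1 and 97 counts in the unstimulated ones, so that replicate 3 alone held most of them and no fold is given.

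Parp9 and Dtx3l form a ubiquitin ligase that enhances interferon signalling, and their annotated exons overlap on opposite strands. The kit keeps the strand, but whether the counting used it is not given in the sources used here. Parp9 had 49.04, 18.1 and 35.3 CPM with and 85.6, 108 and 93.6 CPM without stimulation in Gpx4-deficient cells, and 66.2, 76.7 and 64.9 CPM with and 138, 112 and 156 CPM without it in wild-type cells. It fell in Gpx4-deficient cells, -1.48 (adjusted p = 0.00602, SE 0.30), and gave -0.96 (adjusted p = 0.0604, SE 0.30) in wild-type cells. Parp9 counts were not whole in 12 of 12 libraries, so its share of reads is uncertain. Dtx3l was not called, with 117, 169 and 149 CPM with and 134, 143 and 145 CPM without stimulation in Gpx4-deficient cells, and 143, 115 and 139 CPM with and 131, 169 and 151 CPM without it in wild-type cells. Parp14, an ADP-ribosyltransferase, had 189.5, 168 and 133 CPM with and 201, 88.5 and 127 CPM without stimulation in Gpx4-deficient cells, and 165, 207 and 226 CPM with and 113, 126 and 136 CPM without it in wild-type cells. Its states overlapped in Gpx4-deficient cells, while in wild-type cells every stimulated library was above every unstimulated one. It was not called in either, at 0.23 (adjusted p = 0.616, SE 0.26) in Gpx4-deficient and 0.67 (adjusted p = 0.139, SE 0.26) in wild-type cells.

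The Schlafen genes, several of which are linked to T cell quiescence, moved in different directions. Slfn2, whose loss in mice ends T cell quiescence, rose in Gpx4-deficient cells, with 649, 519.5 and 545 CPM in stimulated and 318, 409 and 409.7 CPM in unstimulated libraries. In wild-type cells it had 797, 685 and 704 CPM with stimulation and 532, 601 and 570 CPM without it. The log2 fold changes of Slfn2 were 0.59 (adjusted p = 0.00787, SE 0.13) in Gpx4-deficient and 0.36 (adjusted p = 0.097, SE 0.13) in wild-type cells. Slfn5 had 14.6, 33.2 and 3.39 CPM with and 109.7, 88.3 and 111 CPM without stimulation in Gpx4-deficient cells, and 10.04, 27.4 and 45.9 CPM with and 77.1, 134 and 199.9 CPM without it in wild-type cells. It fell in Gpx4-deficient cells, -2.59 (adjusted p = 0.0305, SE 0.72), a call kept without stimulated replicate 2 or 3 and lost without any other library (adjusted p up to 0.0893). Slfn8 had 24.9, 70.2 and 103 CPM with and 117, 155 and 93.7 CPM without stimulation in Gpx4-deficient cells, and 46.2, 34.9 and 39.3 CPM with and 131, 95.2 and 118 CPM without it in wild-type cells. It fell in wild-type cells, -1.52 (adjusted p = 0.0303, SE 0.40), a call kept without unstimulated replicate 2 and lost without any other library (adjusted p up to 0.114). Slfn8 counts were not whole in 12 of 12 libraries, so its share of reads is uncertain. Slfn1 was not called.

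Set side by side, the responses of the 2 genotypes had the same sign for 46 of 48 members, the exceptions being Stat2 and Dtx3l. The share of all tested genes with the same sign is not given here, so this is no trait particular to the members. Calls that held in every fit without 1 library numbered 12 of 22 in Gpx4-deficient and 11 of 16 in wild-type cells, and 8 members held in both genotypes, namely Gbp2, Irgm1, Irgm2, Igtp, Iigp1, Zbp1, Ifi213 and Ifi27l2a. The summed level of 10 markers of monocytes and macrophages, cells that carry many interferon-stimulated genes, was also lower with stimulation. The 10 markers summed to 116.1 to 156.1 CPM in stimulated and 171.2 to 204.5 CPM in unstimulated Gpx4-deficient libraries, and to 42.8 to 84.1 CPM in stimulated and 182.5 to 287.7 CPM in unstimulated wild-type libraries. Lyz2 had 15.1 to 65.1 CPM in stimulated and 59.8 to 111.1 CPM in unstimulated Gpx4-deficient libraries, and 19.1 to 50.95 CPM in stimulated and 102 to 176.4 CPM in unstimulated wild-type libraries. Csf1r had 0.0359 to 21.5 CPM in stimulated and 25.3 to 37.6 CPM in unstimulated Gpx4-deficient libraries, and 0 to 0.121 CPM in stimulated and 28.95 to 42.7 CPM in unstimulated wild-type libraries. Ccr2 did not follow it in Gpx4-deficient libraries, at 36.2 to 90.9 CPM with and 30.8 to 54.2 CPM without stimulation, and Cd14 and Adgre1 reached higher there with stimulation (32.7 and 16.7 CPM) than without it (1.96 and 8.79 CPM). Fcgr1 was at 0 in both stimulated groups, and Itgam was at 0 in stimulated wild-type cells. The part of these cells in the result was not tested.

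**Figure D3:**
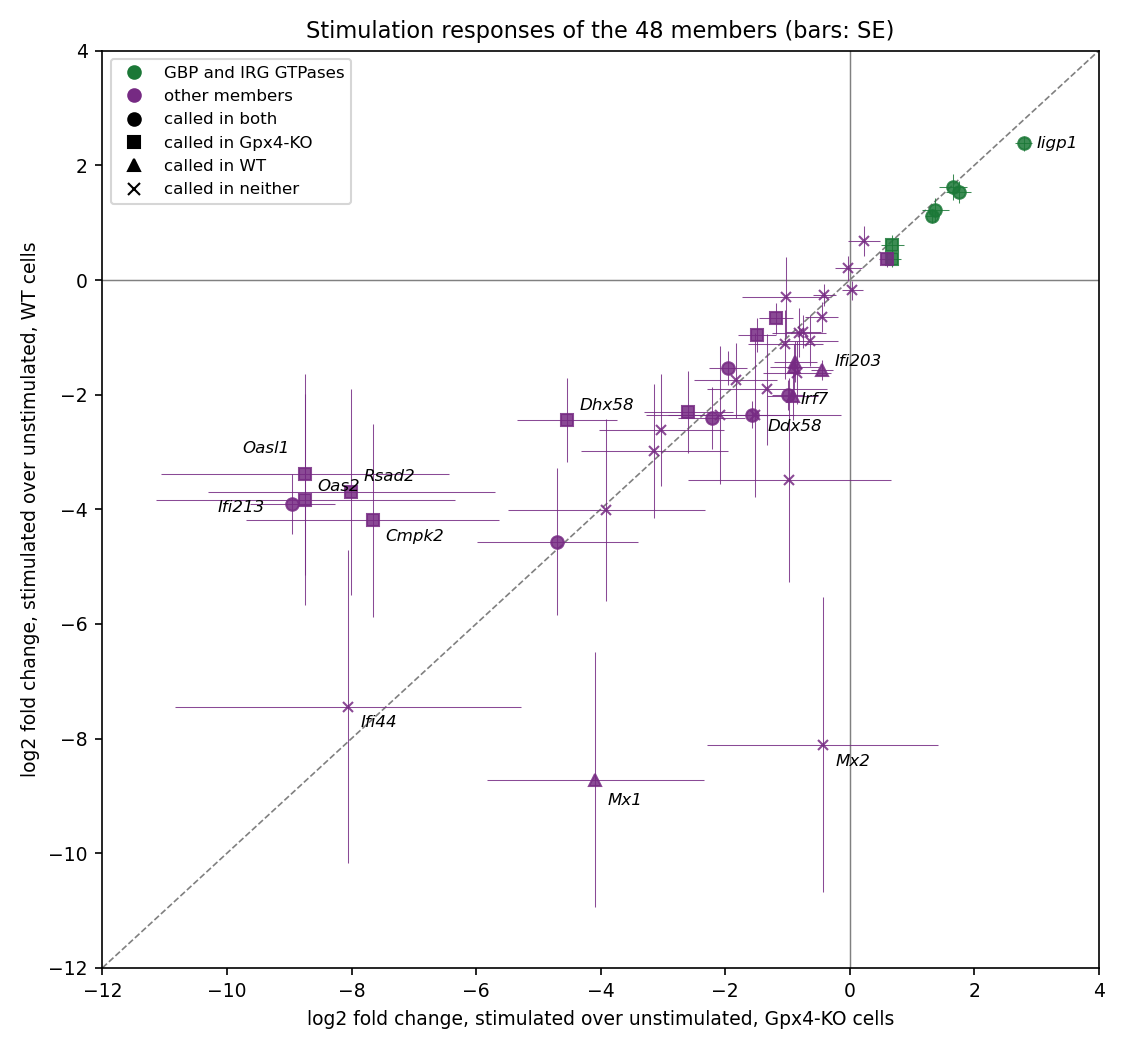
Each symbol is 1 member at its log2 fold change on stimulation in Gpx4-deficient cells (horizontal) and in wild-type cells (vertical), with bars of 1 SE. Green symbols are the 7 GBP and IRG GTPases, purple ones the other 41, symbol shapes show where the member was called, and the dashed line marks equal responses. The GTPases sit in the upper right corner with short bars, and members with few counts, such as Mx2, Oas2 and Rsad2, have long bars.

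The difference between the 2 responses was tested directly by an interaction, the log2 fold change in Gpx4-deficient cells less the one in wild-type cells. Of the 48 members, 1 was called (2.08%, against 0.202% of all tested genes). Ifi213 fell further in Gpx4-deficient cells, -5.04 (adjusted p = 0.028, SE 0.75). That call was lost without any 1 of the 6 unstimulated libraries (adjusted p 0.0654 to 0.144), while the difference itself stayed between -5.32 and -4.16 over the 12 fits that each left out 1 library. Without stimulated Gpx4-deficient replicate 1 or 2 the count was 3 or 2, limma-voom called 0 members and 6 had an unadjusted p under 0.05 in edgeR. The other 47 members did not pass, among them Ifi203, 1.13 (adjusted p = 0.123, SE 0.24), and Irf7, 1.01 (adjusted p = 0.446, SE 0.36). All 7 GTPases had a positive difference, between 0.04 and 0.41, none of which passed.

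After stimulation, 2 members were higher in Gpx4-deficient than in wild-type cells (4.17%, against 1.03% of all tested genes) and 1 was lower (2.08%, against 1.25%). The higher ones were Ifi203, with a log2 fold change of 1.23 (adjusted p = 0.00442, SE 0.17), and Iigp1, at 0.58 (adjusted p = 0.043, SE 0.13), and the lower one was Ifi213, at -5.31 (adjusted p = 0.00126, SE 0.61). In mean levels, Ifi203 stood at 168 ± 33.4 CPM in Gpx4-deficient and 71.8 ± 13.4 CPM in wild-type cells, Iigp1 at 727 ± 52.4 CPM in Gpx4-deficient and 486 ± 18.2 CPM in wild-type cells, and Ifi213 at 0.115 ± 0.0401 CPM in Gpx4-deficient and 4.75 ± 3.66 CPM in wild-type cells (SD, n = 3 each). Ifi203 and Ifi213 together summed to 168.3 ± 33.4 CPM in stimulated Gpx4-deficient and 76.5 ± 16.6 CPM in stimulated wild-type cells, and to 288.2 ± 13.6 CPM in unstimulated Gpx4-deficient and 285.5 ± 31.98 CPM in unstimulated wild-type cells. The Iigp1 call was lost in 5 of 6 fits without 1 library (adjusted p 0.0325 to 0.147), and those of Ifi203 and Ifi213 held in all 6. Iigp1 kept it without stimulated Gpx4-deficient replicate 2. Every Gpx4-deficient library lay above every wild-type one for 3 members (Ifi203, Mx1 and Iigp1, background 8.29%) and below for 5 (Dhx58, Ifi213, Rsad2, Parp9 and Slfn2, background 11.9%). The median log2 fold change was -0.24 over the 48 members and 0 over all tested genes. Markers of other cells differed between the same groups. The 10 monocyte and macrophage markers summed to 116.1 to 156.1 CPM in stimulated Gpx4-deficient and 42.8 to 84.1 CPM in stimulated wild-type libraries, and the 8 erythroid and platelet markers to 33.6 to 49.7 CPM and 8.13 to 22.8 CPM, both without overlap, with Fcgr1 and Ppbp at 0 in both groups. The 9 dendritic markers summed to 498.6 to 702.7 CPM in stimulated Gpx4-deficient and 778.9 to 852.1 CPM in stimulated wild-type libraries, and without Irf8 to 11.1 to 76.4 CPM and 31.6 to 52.7 CPM, which overlapped. Their part in the result was not tested. The count was 7 without stimulated Gpx4-deficient replicate 1 and 5 without replicate 2, where 658 and 625 of all genes were called. DESeq2 called 11 members (4 higher, 7 lower) and 1876 of all genes. Where the 2 stimulated groups were fitted alone, 0 members and 22 genes were called.

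**Figure D4:**
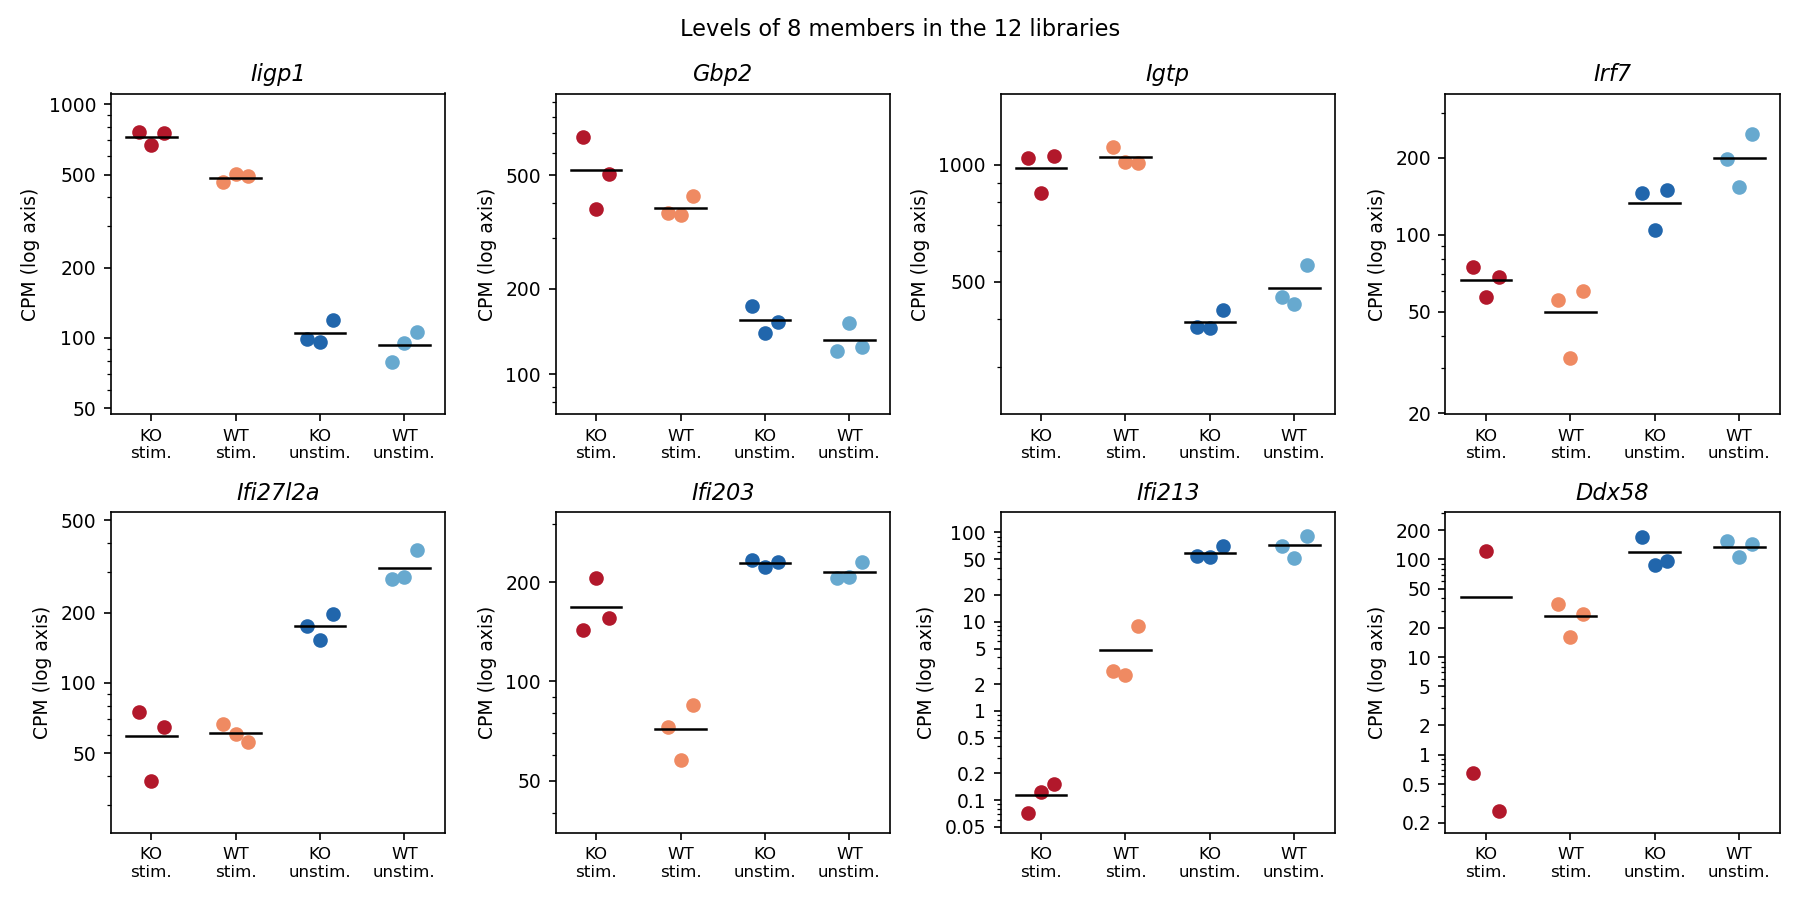
Points are single libraries and bars the group means of 8 members in CPM on log axes, with Gpx4-deficient (KO) and wild-type (WT) cells with and without stimulation. Ifi203 is higher and Ifi213 lower in stimulated Gpx4-deficient than in stimulated wild-type libraries without overlap, and Ddx58 in stimulated Gpx4-deficient libraries spans 0.264 to 121.9 CPM.

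Without stimulation, no member was called between the genotypes by edgeR or by limma-voom, against, in edgeR, 0.0674% of all tested genes. At an unadjusted p under 0.05 in edgeR there were 5 members, and no share of all genes is given for that level. DESeq2 called 2 members, both lower in Gpx4-deficient cells, and 218 of all genes. The log2 fold changes leaned one way, with 35 of 48 members below 0 and a median of -0.36, where all tested genes had 0.01. Every Gpx4-deficient library lay below every wild-type one for 12 members (25%, background 9.89%), namely Irf7, Ifit3, Mx2, Rsad2, Isg20, Bst2, Xaf1, Ifi27l2a, Epsti1, Parp9, Igtp and Slfn2, and above for 1, Irgm2 (2.08%, background 8.42%). Ifi27l2a, for example, averaged 175 ± 22.4 CPM in Gpx4-deficient and 311 ± 52.4 CPM in wild-type cells, a log2 fold change of -0.83 (adjusted p = 0.432, SE 0.23). Slfn2 averaged 379 ± 52.7 CPM in Gpx4-deficient and 568 ± 34.8 CPM in wild-type cells, at -0.58 (adjusted p = 0.25, SE 0.13). Without unstimulated wild-type replicate 3 the median was -0.08. Markers of another cell type differed between the same groups. The 10 neutrophil markers summed to 1.34 to 8.08 CPM in unstimulated Gpx4-deficient and 49.1 to 173.9 CPM in unstimulated wild-type libraries, with Ly6g, which defines that cell, at 0 in both. Their part in the result was not tested.

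Among genes that act upstream of the members, a chain of the interferon gamma receptor rose with stimulation and a chain of the type I receptor fell in both genotypes. Of 38 tested upstream genes, 11 rose and 9 fell in Gpx4-deficient cells, where 7.45% and 7.83% of all tested genes did. In wild-type cells 8 rose and 8 fell, where 6.12% and 5.41% of all tested genes did. Ifngr1, the ligand-binding chain of the interferon gamma receptor, stood at 965 ± 165 CPM in stimulated and 245 ± 4.41 CPM in unstimulated Gpx4-deficient libraries, and at 757 ± 139 CPM in stimulated and 234 ± 24.96 CPM in unstimulated wild-type cells (SD, n = 3 each). Its log2 fold changes were 1.98 (adjusted p = 6.30e-06, SE 0.16) and 1.70 (adjusted p = 1.84e-05, SE 0.16) in Gpx4-deficient and wild-type cells. Ifnar2, a chain of the type I receptor, fell to 90.3 ± 21.1 CPM in stimulated Gpx4-deficient cells, against 165 ± 12.7 CPM unstimulated, and to 89.9 ± 17.99 CPM in stimulated wild-type cells, against 162 ± 4.63 CPM unstimulated. The log2 fold changes of Ifnar2 were -0.87 (adjusted p = 0.0113, SE 0.20) in Gpx4-deficient and -0.85 (adjusted p = 0.0149, SE 0.20) in wild-type cells. Ifnar1 fell in wild-type cells, -0.67 (adjusted p = 0.0442, SE 0.19), and gave -0.51 (adjusted p = 0.0977, SE 0.19) in Gpx4-deficient cells. Il10rb, a chain of the interferon lambda receptor that also serves interleukin receptors, fell in both genotypes, -0.98 (adjusted p = 0.00272, SE 0.18) in Gpx4-deficient and -0.70 (adjusted p = 0.0216, SE 0.18) in wild-type cells. Ifngr2, the other chain of the interferon gamma receptor, was not called, at 0.24 and 0.42.

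The kinases also moved apart. Jak2, which serves the interferon gamma receptor, rose by 1.54 in Gpx4-deficient and 1.01 in wild-type cells on the log2 scale, while Tyk2, which serves the type I receptor, gave -1.17 in Gpx4-deficient and -0.87 in wild-type cells, and Jak1, which serves both, -0.44 in Gpx4-deficient and -0.77 in wild-type cells, all called (adjusted p at most 0.0492). The transcription factors Stat3 and Stat4 rose in both, Stat3 by 1.37 in Gpx4-deficient and 1.94 in wild-type cells and Stat4 by 1.41 in Gpx4-deficient and 1.45 in wild-type cells. Irf1, an activator of GBP genes, rose by 0.75 and 1.01, Irf8 by 2.80 and 3.17, and Irf4, an early target of T cell receptor signalling, by 4.13 and 3.79 in Gpx4-deficient and wild-type cells. Socs1, which restrains the receptors' kinases, rose by 1.87 in Gpx4-deficient and 2.22 in wild-type cells. Socs3, of the same family, fell in Gpx4-deficient cells, -1.55 (adjusted p = 0.000812, SE 0.23), and gave 0.10 (adjusted p = 0.889, SE 0.23) in wild-type cells. The phosphatase gene Ptpn6 fell in both genotypes, -1.86 (adjusted p = 0.000378, SE 0.25) in Gpx4-deficient and -1.48 (adjusted p = 0.00172, SE 0.25) in wild-type cells, and Ptpn2, another phosphatase of the pathway, rose in Gpx4-deficient cells, 0.80 (adjusted p = 0.0305, SE 0.22), and gave 0.48 (adjusted p = 0.216, SE 0.22) in wild-type cells. Sting1, the adaptor of cytosolic DNA sensing, fell in both, -1.08 (adjusted p = 0.00404, SE 0.21) in Gpx4-deficient and -1.40 (adjusted p = 0.000721, SE 0.21) in wild-type cells. Ifng, the gene of interferon gamma, was the one interferon gene tested and was not called, with 32.8, 25.9 and 50.3 CPM in stimulated and 10.1, 18.1 and 22.6 CPM in unstimulated Gpx4-deficient libraries, and 22.1, 22.1 and 22.9 CPM in stimulated and 23.2, 13.2 and 17.2 CPM in unstimulated wild-type libraries. Its log2 fold changes were 1.10 (adjusted p = 0.0975, SE 0.41) in Gpx4-deficient and 0.32 (adjusted p = 0.755, SE 0.41) in wild-type cells.

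**Figure D5:**
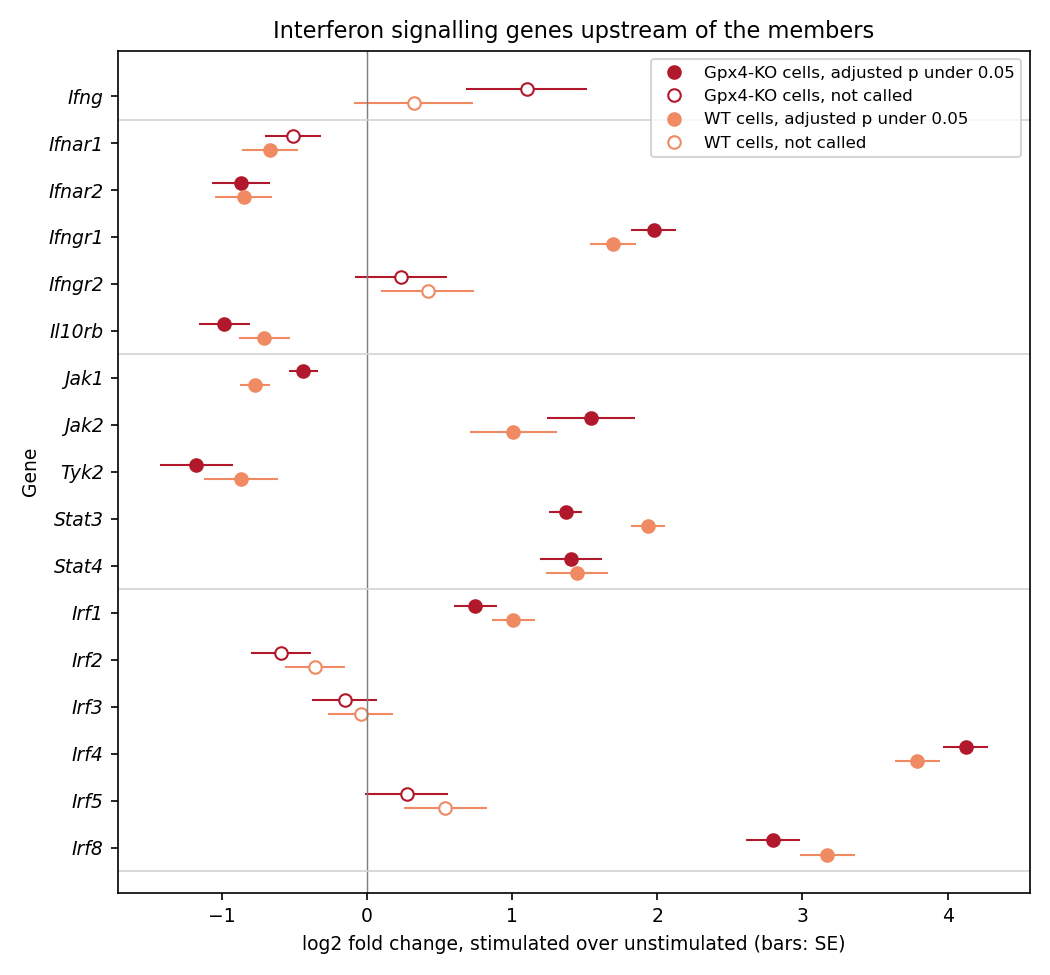
Points are log2 fold changes on stimulation of interferon gamma, receptor, kinase, STAT and IRF genes in Gpx4-deficient (dark) and wild-type (light) cells, with bars of 1 SE and filled points where the adjusted p was under 0.05. Ifngr1, Jak2 and Irf1 lie to the right of 0 and Ifnar2 and Tyk2 to the left of it in both genotypes.

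Between the genotypes, 4 of the 38 upstream genes were called after stimulation and none without it. After stimulation 2 were higher and 2 lower in Gpx4-deficient cells, where 1.03% and 1.25% of all tested genes were. Without stimulation 0.0674% of all tested genes were called. Ikbke, a kinase that activates interferon regulatory factors, was lower in stimulated Gpx4-deficient cells at 45.6 ± 17.97 CPM against 101 ± 10.3 CPM in wild-type cells, -1.14 (adjusted p = 0.0479, SE 0.26). Tlr7, a receptor for RNA in endosomes, was lower at 0.204 ± 0.205 CPM in stimulated Gpx4-deficient against 6.4 ± 0.521 CPM in stimulated wild-type cells, -4.95 (adjusted p = 0.011, SE 0.83). Nlrc5, which activates MHC class I genes, was higher at 733 ± 63.03 CPM in Gpx4-deficient against 439.6 ± 15.6 CPM in wild-type cells, 0.74 (adjusted p = 0.00344, SE 0.10), and Samhd1, which breaks down nucleotides, was higher at 1288 ± 152 CPM in Gpx4-deficient against 883 ± 43.3 CPM in wild-type cells, 0.55 (adjusted p = 0.0328, SE 0.12).

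Other known interferon-stimulated genes, listed beside the 48 and chosen with results of these data known, included 57 that were tested. Of these, 6 rose and 15 fell in Gpx4-deficient cells, where 7.45% and 7.83% of all tested genes did. In wild-type cells 3 rose and 10 fell, where 6.12% and 5.41% of all tested genes did. The 11 further GBP and IRG genes gave 5 rises and 2 falls in Gpx4-deficient and 3 rises and 2 falls in wild-type cells. Their median log2 fold change was 0.723 in Gpx4-deficient and -0.076 in wild-type cells. The remaining 46 gave 1 rise and 13 falls in Gpx4-deficient and 0 rises and 8 falls in wild-type cells, with medians of -0.85 and -0.779. The rises were Gbp4, Gbp5 and Tgtp1 in both genotypes and Gbp6 and Gbp7 in Gpx4-deficient cells. The falls among the GTPases were Gbp8 and Gbp9, at -1.76 and -0.86 in Gpx4-deficient and -1.62 and -1.33 in wild-type cells. Outside the GTPases, Ly6a rose in Gpx4-deficient cells. Ddx60, Ifi206, Ifi209, Ifit1bl1, Phf11b, Sp100 and Sp110 fell in both genotypes, Ifit3b, Ly6c1, Oas1b, Parp11, Rnf213 and Xdh in Gpx4-deficient cells and Nmi in wild-type cells. Gbp7 was the one gene of the 57 called between the genotypes, at 703 ± 168 CPM in stimulated Gpx4-deficient and 387 ± 53.04 CPM in stimulated wild-type cells, 0.86 (adjusted p = 0.0339, SE 0.18). Of all tested genes, 1.03% were called higher in that comparison.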

How the data were processed

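RNA was measured in 12 mouse Treg libraries, 3 in each of 4 groups, each from 600 ng of input RNA and a kit for stranded mRNA, per the labels' protocols. The authors deposited 1 table of expected counts per gene, an estimate that shares reads among genes and so need not be whole. Per library, 14.8% to 18.1% of values had a fractional part, and these were rounded for the tests. The genome build was GRCm38, per the submitters' processing notes, while the sources used here do not name the aligner, the annotation or the strand setting. Library totals ran from 24629230 to 31879267 expected counts.

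Genes passing edgeR's filter on low counts (14827 of 24502) were fitted with the quasi-likelihood test of edgeR 4.0.16 (R 4.3.3), with TMM scaling and 1 mean for each of the 4 groups, which leaves 8 residual degrees of freedom. The 5 comparisons were the genotypes with and without stimulation, stimulation in each genotype, and the difference of the 2 responses. P-values were adjusted over all tested genes by the Benjamini-Hochberg method, with a threshold of 0.05. The procedure was run on simulated data with changes placed only in well-counted genes of stimulated wild-type cells. That run does not cover members with few counts, and its outcome is not given here. Levels are TMM-scaled CPM, which is not per length. Sums over members therefore weigh long and abundant genes most, and the most abundant member of each role was chosen on this scale. Positions of genes and overlaps of exons come from the GENCODE annotation of GRCm38, and promoters from RefSeq (GRCm38.p6). Low counts were compared as ratios with exact 95% counting intervals or, at 0, with a floor of 3 counts over the group.

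The members, the roles and the other gene lists were chosen with earlier results of these data known. All 48 members could be named. Those called in any comparison were given with their value in every library, as was the most abundant member of each role, and upstream genes were named where called or where they are receptors, kinases, STATs or interferons. One upstream gene and one marker gene are not reported here by name. Alternatives were RLE scaling, library totals, no filter, unrounded counts, DESeq2 1.42.0, limma-voom (limma 3.58.1), fits on the compared groups alone, a block on replicate number, and leaving out each library.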

Additional observations from a re-analysis of the deposited data

Results flagged for a closer look

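Ifi213, the DNA-binding PYHIN gene, was the one member whose response to stimulation differed between the genotypes in edgeR's test of the difference itself, where DESeq2 called 2 members. The interaction log2 fold change was -5.04 (SE 0.75, adjusted p = 0.0280, edgeR), from a response of -8.95 in Gpx4-deficient and -3.91 in wild-type cells. The call was lost in 8 of 20 alternatives, namely limma-voom (adjusted p = 0.28), the replicate block within genotype (adjusted p = 0.172) and each of the 6 fits without 1 unstimulated library (adjusted p 0.0654 to 0.144). Every stimulated library lay below every unstimulated one in both genotypes, with 2, 4 and 4 counts in stimulated Gpx4-deficient libraries. Counts of Ifi213 were not whole in 12 of 12 libraries, and its relative Ifi203 was higher in the same stimulated Gpx4-deficient libraries. The part of read sharing in the difference was not tested.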

How the results depend on the processing

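RLE scaling, library totals, no filter and unrounded counts kept every count of called members within 1.5 times and every median on its side of 0. Over all alternatives, the 42 calls gave 629 refitted values, of which 101 lost the call and 0 reversed, and 20 calls were never lost. For the genotypes without stimulation, DESeq2 called 2 members and 218 of all genes, where edgeR called 0 members and 10 genes. For the genotypes after stimulation, DESeq2 called 11 (4 higher, 7 lower) and 1876 of all genes. The compared groups alone gave 0 members and 22 genes there, and limma-voom moved the median to -0.47. For stimulation in Gpx4-deficient cells, the compared groups alone gave 13 calls, and the median was -1.64 in limma-voom. For stimulation in wild-type cells, DESeq2 called 30, limma-voom 25 and the compared groups alone 39. For the difference of the responses, DESeq2 called 2 and limma-voom 0. Counts over all genes in the alternative fits of stimulation and of the difference are not given here. In limma-voom the median of all genes also shifted, to -0.21 for the stimulated genotypes, -0.26 for stimulation in Gpx4-deficient cells and -0.14 for the difference. The cause of these shifts was not tested.

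The sample titles reuse the same replicate numbers in both states of a genotype. Deviations of same-numbered libraries from their group means correlated at -0.024 to 0.03. With 3 libraries in a group, this cannot tell whether same-numbered libraries came from the same mouse. With a block on replicate number over all 12 libraries the counts were 0 and 2 for the genotypes without and after stimulation, 18 and 15 for stimulation in Gpx4-deficient and wild-type cells, and 1 for the difference. For the genotypes without and after stimulation, 3 and 171 of all genes were called with that block. The median for Gpx4-deficient cells was -1.28, beside -0.13 for all genes. With a replicate block within genotype the counts were 16, 13 and 0, with medians of -1.50 for Gpx4-deficient cells and -0.15 for the difference, where all genes stood at -0.23 and -0.14.

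Leaving out 1 library gave 0 to 0 calls for the genotypes without stimulation, 2 to 7 after it, 15 to 23 for stimulation in Gpx4-deficient and 11 to 15 in wild-type cells, and 0 to 3 for the difference. The medians ran from -0.476 to -0.079, from -0.271 to -0.072, from -1.216 to -0.978, from -1.795 to -1.422 and from -0.037 to 0.267 in that order. Over all genes, the fits without 1 library called 3 to 14 for the genotypes without stimulation and 117 to 658 after it. Counts over all genes for the other comparisons are not given here. Members with at most 10 counts in one library and over 100 in another limit the precision, above all in stimulated Gpx4-deficient cells.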
